A study of Mus musculus with 12 samples.

Results

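Stearoyl-CoA desaturase 1 (Scd1) and the other genes of fatty-acid synthesis that the array names were followed through 72 hours of fasting in mouse liver. The probes were chosen by their gene names, as the probe of Scd1 and every probe named for an Scd, Fads, Elovl or acetyl-CoA carboxylase gene or for Fasn, Acly, Mod1 or Me1, Gpam, Thrsp or Srebf1. This gave 8 of the 7181 gene names on the array, with 10 of its 20280 probes: Acly, Mod1, Fasn (2 probes), Scd1, Scd2 (2 probes), Fads2, Fads3 and Gpam. No probe carried the names of acetyl-CoA carboxylase, Elovl1 to Elovl6, Thrsp or Srebf1, so that these genes were not analysed under those names. Livers came from male FVB mice of 6 weeks, with 6 mice in each of 4 groups that had been fed or had gone without chow for 12, 24 or 72 h. All of them stood in metabolic cages, and an infrared lamp warmed the animals from 24 h on. Each group was measured on 3 arrays, and the RNA on 1 array was a pool of 2 livers labelled with Cy3. The Cy5 channel of every array held the same reference, a pool of 6 fed livers, which are the livers that the fed arrays measured too. The dyes were never exchanged. An SD below is therefore a spread between pools, not between mice, and in whole liver fewer cells of a type and less RNA per cell cannot be told apart.

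Fatty-acid synthesis turns surplus carbohydrate into fat. ATP-citrate lyase (Acly) cuts citrate in the cytosol into acetyl-CoA, malic enzyme (Mod1 on the array, Me1 today) supplies NADPH, and fatty-acid synthase (Fasn) builds palmitate, after acetyl-CoA carboxylase has made malonyl-CoA. Elongases lengthen the chain, and stearoyl-CoA desaturases (Scd1, the main form in liver, and Scd2) place a double bond at the delta-9 position, which gives oleate and palmitoleate. Fads2 is the delta-6 desaturase of polyunsaturated fatty acids, Fads3 is a family member that acts on other substrates, and the mitochondrial acyltransferase Gpam attaches the first fatty acid to glycerol 3-phosphate. Insulin and the transcription factors SREBP-1c and ChREBP drive most of these genes in the fed liver, and fasting is known to lower them.

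Signal strength and quantification day of the arrays touch all values below. On replicate 2 of the 12 h group and replicate 3 of the 24 h group the sample signal was low, with a median signal over background of 4.72 and 3.50, against 5.34 to 10.6 on the other 10 arrays. By the file headers the images were quantified on 3 days, with fed replicates 2 and 3 and the 72 h arrays together (day A), replicates 1 and 3 of 12 h and 1 and 2 of 24 h together (day B), and fed replicate 1 together with both low-signal arrays (day C). Without both low-signal arrays, the 12 and 24 h groups share no day with a fed array, so that day and fasting cannot be told apart there. The hepatocyte markers Apoa1 and Ttr were well above background on all 12 arrays. None of the 15 marker probes of hepatocytes and of other cell types passed the test on 12 arrays at any time. On the 10 arrays, Ttr, a thyroxine carrier made by hepatocytes, fell by 1.35 on the log2 scale at 72 h, and decorin (Dcn), a marker of stellate cells, rose by 1.01 at 12 h and passed at 24 h too. The other markers of these cells did not follow at those times. Apoa1 differed by 0.15 at 72 h, and the stellate markers Acta2 and Des by -0.07 and -0.16 at 24 h. At 72 h the usable arrays of Des and Dcn lay above the fed ones (0.26 and 0.56), like 9.26% of all probes, and Acta2 differed by -0.37. Both probes of the macrophage marker Lyz2 lay below the fed arrays at 24 and 72 h, like 6.13% and 12.4% of all probes. They differed by -0.36 and -0.79 at 72 h and did not pass. The part of these marker changes in the values below was not tested.

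The Scd1 mRNA stood lower in the livers fasted for 24 and 72 h, and in the 12 h group 1 array set its level. The log2 ratio of sample over reference was 0.41, 0.27 and -0.15 on the fed arrays and -0.38, -2.85 and 0.21 on the 12 h arrays, in the order of the replicates. At 24 h the log2 ratios were -1.16, -1.25 and -0.56, and at 72 h -1.45, -1.20 and -1.52. All 24 and 72 h arrays therefore lay below the 3 fed arrays, whereas the 12 h group held both the lowest value of all and 1 within the fed range. The group means were 0.18 ± 0.29 in the fed, -1.01 ± 1.62 in the 12 h, -0.99 ± 0.38 in the 24 h and -1.39 ± 0.17 in the 72 h group (SD, n = 3 arrays each). From the highest mean to the lowest the order was fed, 24 h, 12 h and 72 h, and the 3 fasted groups overlapped each other.

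**Figure D1:**
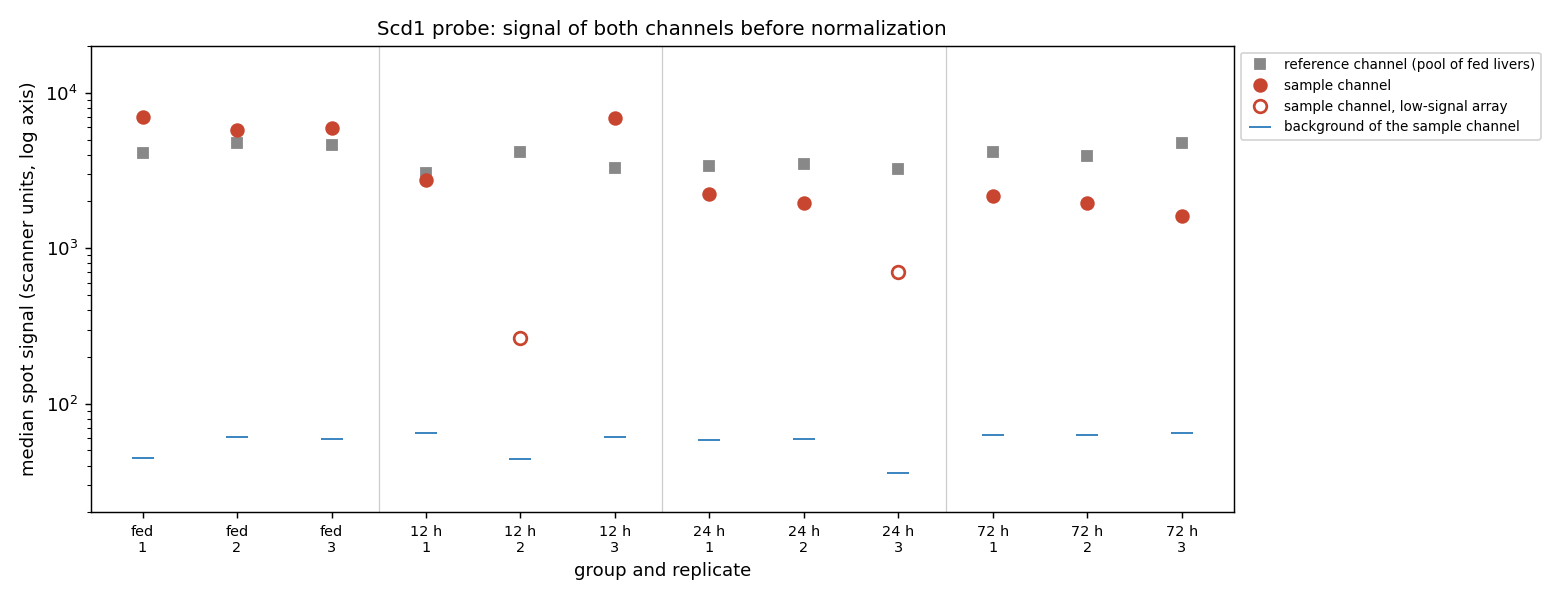
Median brightness of the Scd1 spot in scanner units (log axis) on the 12 arrays, by group and replicate: red circles are the liver pools, grey squares the common reference, blue dashes the background of the sample channel and open circles the low-signal arrays. The reference lies between 3024 and 4725.5 on every array, whereas the sample lies between 5723 and 7022.5 on the fed and between 1608.5 and 2171.5 on the 72 h arrays.

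The signals of Scd1 before normalization are given by channel. The reference, which is the same RNA throughout, gave 3024 to 4725.5 scanner units on the 12 arrays. The sample channel gave 7022.5, 5723 and 5915 units on the fed arrays, 2761.5, 264 and 6840 at 12 h, 2234, 1953 and 700.5 at 24 h, and 2171.5, 1944.5 and 1608.5 at 72 h. The sample was thus brighter than the reference on all fed arrays and dimmer on all 24 and 72 h arrays. After normalization the reference signal of Scd1 ran from 10.98 to 12.75 on the log2 scale. At 24 h the normalized sample signals of 11.08, 11.20 and 11.99 overlapped those of fed replicates 2 and 3 (11.25 and 11.47), and the reference was higher (12.24 to 12.54, against 10.98 and 11.62). On fed replicate 1 the sample was at 13.16 and the reference at 12.75, both above those of every 24 h array. The Scd1 spot was well above background on all 12 arrays, saturated on none and never marked as an outlier.

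Fitted over the 12 arrays, the Scd1 level was lower than in the fed group by 1.19 ± 0.61 (SE) on the log2 scale at 12 h (adjusted p = 0.955) and by 1.17 ± 0.61 at 24 h (adjusted p = 1.00), which corresponds to 2.28- and 2.25-fold lower values that did not pass the test. At 72 h the difference was -1.56, or 2.96-fold lower. This last value has no test here, because the study listed this very probe for its change at 72 h from the same arrays. Between fasting times the Scd1 difference was 0.02 ± 0.61 from 12 to 24 h (95% interval -1.32 to 1.36) and -0.40 ± 0.61 from 24 to 72 h (-1.74 to 0.94), so that both intervals hold 2-fold lower values as well as no difference. The value from 24 to 72 h turned to 0.66 once quantification day was fitted as a block. In that fit the 12 and 24 h groups meet the fed arrays only on day C, through both low-signal arrays.

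The low-signal arrays carried most of that error. Without both of them, Scd1 was lower than in the fed group by 0.27 ± 0.20 at 12 h (adjusted p = 0.464), fell by 1.38 ± 0.20 at 24 h (2.61-fold, adjusted p = 0.00636) and was lower by 1.56 ± 0.18 at 72 h. The 24 h difference passed on these 10 arrays, on which 8.81% of all probes tested passed at that time. The 24 h arrays that remain were quantified on another day than the fed arrays. Within day C, replicate 3 of 24 h, itself a low-signal array, lay 0.97 below fed replicate 1, and within day A the 72 h arrays lay 1.45 below fed replicates 2 and 3. Within day B the 24 h arrays lay 1.12 below the 12 h arrays, and this difference between fasting times had an adjusted p of 0.998 (unadjusted 3.43e-04) in the fit over 10 arrays. The value from 12 to 24 h thus went from 0.02 on 12 arrays to -1.12 on 10, and to -0.90 without replicate 2 of the 12 h group alone.

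Scd2, the other delta-9 desaturase on the array, did not pass the test at any time on either of its probes. Its probe 7923 gave log2 ratios of -0.36, 0.01 and 0.09 on the fed arrays, -0.50, -0.26 and -0.33 at 12 h, -0.38, -0.78 and 0.30 at 24 h, and -0.13, -0.33 and -0.36 at 72 h. Its probe 18816 gave -0.12, 0.10 and -0.03 on the fed arrays, -1.11 and -0.23 at 12 h, -0.40, -0.29 and -0.22 at 24 h, and -0.01, 0.15 and 0.03 at 72 h. Replicate 1 of 12 h was an outlier spot of probe 18816 and was set to missing. The fitted differences of Scd2 from fed lay between -0.66 and 0.07 over both probes and the 3 times on 12 arrays. The value of -0.66, on probe 18816 at 12 h, rests on the low-signal array at -1.11, whose spot was not well above background, and is -0.21 without both low-signal arrays. At 24 h, Scd2 was lower on those 10 arrays by 0.49 on probe 7923 (1.41-fold, adjusted p = 0.0763) and by 0.33 on probe 18816 (adjusted p = 0.0871), with the 24 h arrays below all fed arrays on both probes. On probe 18816 all 12 and 24 h arrays lay below the fed arrays, while the 72 h arrays overlapped them. The probes of Scd2 ran together only weakly over the arrays (r = 0.17, n = 11), and both were dim. Their sample signals ran from 107 to 612 scanner units without the outlier spot.

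The delta-6 desaturase Fads2 stood on the other side of the fed level. Its log2 ratios were 0.62 and 0.52 on fed replicates 1 and 3, 1.02, 1.06 and 0.87 at 12 h, 1.18, 1.60 and 0.99 at 24 h, and 0.05 and 0.74 on replicates 1 and 2 of 72 h, with the remaining fed and 72 h spots missing as outliers. Every 12 and 24 h array, with both low-signal arrays among them, lay above the fed arrays, and both 72 h arrays lay below every 24 h array. All ratios were above 0, those of the fed arrays too, although the reference is fed liver, so that only differences between groups can be read. Fads2 was higher than in the fed group by 0.42 ± 0.25 at 12 h (adjusted p = 0.955) and by 0.69 ± 0.25 at 24 h (1.61-fold, unadjusted p = 0.0238, adjusted p = 1.00), and the 72 h value differed by -0.17 ± 0.28. From 24 to 72 h the Fads2 difference was -0.86 ± 0.25 (1.82-fold lower, unadjusted p = 0.00797, adjusted p = 1.00). Without both low-signal arrays the values were 0.82 ± 0.23 at 24 h (adjusted p = 0.0522) and -0.997 ± 0.23 from 24 to 72 h (adjusted p = 0.0632), both just short of the threshold. These 24 h arrays share no quantification day with the fed or 72 h arrays, and within day C the low-signal 24 h array lay 0.37 above fed replicate 1. Fads3, the related desaturase, lay between -0.14 and 0.51 on all 12 arrays, with 1 spot not well above background, and its differences from fed were 0.22 ± 0.17, 0.10 ± 0.17 and 0.04 ± 0.17 at 12, 24 and 72 h.

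Acly, which feeds acetyl-CoA into the pathway, was the member whose mean came closest to that of Scd1 at 72 h. It gave log2 ratios of 0.36, 0.48 and -0.20 on the fed arrays, 0.11, -2.05 and -0.07 at 12 h, -0.24, 0.08 and -1.22 at 24 h, and -1.05, -0.47 and -0.30 at 72 h. The lowest value at 12 h and at 24 h came from the low-signal array, and only at 72 h did the fasted arrays all lie below the fed arrays. The Acly difference from fed was -0.82 ± 0.53 at 72 h (1.77-fold lower, adjusted p = 1.00), and without both low-signal arrays it was the same with a smaller error (± 0.21, adjusted p = 0.110). At 12 and 24 h the differences of -0.88 and -0.67 became -0.19 and -0.29 without those arrays. Within day A the 72 h arrays lay 0.75 below the fed arrays. Malic enzyme (Mod1) had log2 ratios between -0.19 and 0.26 on all arrays except the low-signal ones, which read -1.18 and -0.53, and its difference from fed at 72 h was -0.10 ± 0.32.

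The probes of fatty-acid synthase did not run together. Fasn probe 20022 gave 0.00, -0.13 and -0.01 on the fed arrays, -0.28, -0.70 and -0.32 at 12 h, -0.32, -0.06 and -0.59 at 24 h, and -0.25, -0.49 and -0.43 at 72 h on the log2 ratio scale. All 12 and 72 h arrays, and those of 24 h but for replicate 2, lay below the fed arrays. Fasn probe 20905 gave -0.19, -0.11 and -0.05 on the fed arrays, 0.03, -0.88 and 0.05 at 12 h, 0.25, -0.43 and -0.02 at 24 h, and 0.08, -0.04 and 0.25 at 72 h, where all arrays lay just above the fed ones. At 72 h the difference from fed was -0.34 ± 0.18 on the former and 0.22 ± 0.26 on the latter probe (adjusted p = 1.00 for both), and over the 12 arrays the probes had r = 0.19. The files used here do not say which part of the transcript each probe reads. The signal of probe 20022 in the reference channel also changed with the day, from 355 to 1396 units on day B, 502 to 774 on day C and 2148 to 3733 on day A. Gpam, which joins fatty acids to glycerol, had log2 ratios of 0.23, 0.28 and -0.40 on the fed arrays, 0.91, -2.71 and 0.53 at 12 h, 0.30, 0.83 and -0.99 at 24 h, and -0.04, 0.17 and 0.16 at 72 h. Here the low-signal arrays decided the direction at 12 h. The Gpam difference from fed was -0.45 ± 0.79 at 12 h and 0.01 ± 0.79 at 24 h, and without them 0.69 ± 0.22 (adjusted p = 0.106) and 0.53 ± 0.22 (adjusted p = 0.137).

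**Figure D2:**
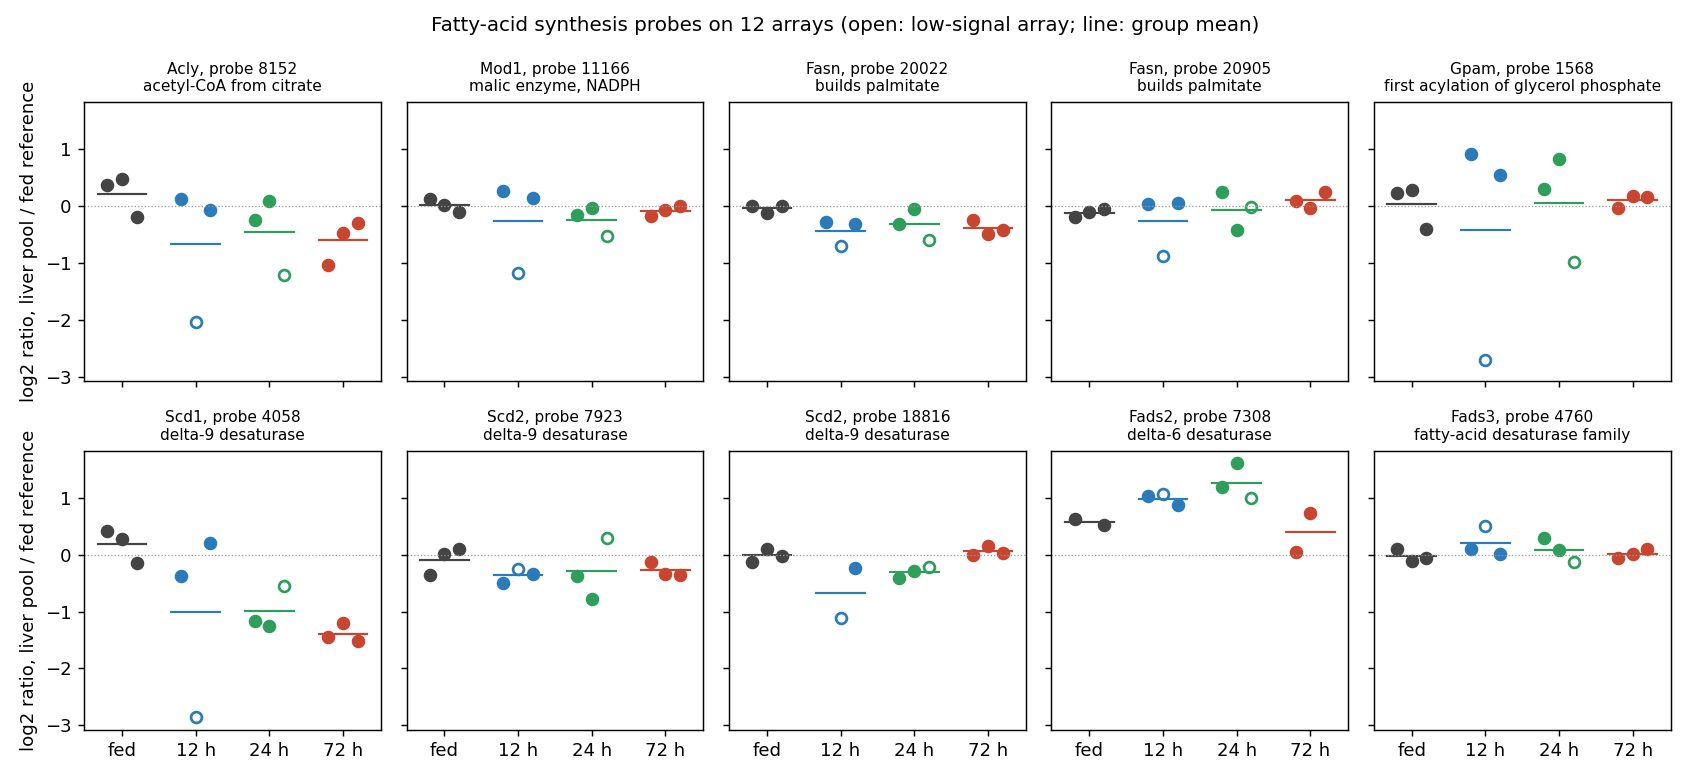
Log2 ratio of liver pool over fed reference (y axis) for the 10 probes on the 12 arrays, by group (x axis); filled circles are arrays, open circles the low-signal arrays and lines group means. Scd1 lies below the fed arrays on all 24 and 72 h arrays, Fads2 above them on all 12 and 24 h arrays, and the open circles of Acly, Gpam and Scd1 at 12 h lie at -2.05, -2.71 and -2.85.

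Seen over all 10 probes, every one was tested in each comparison and none passed at an adjusted p under 0.05 and 1.4-fold, among 0.00497% of all probes tested that passed at 12 h, 0.00497% at 24 h and 0.00996% at 72 h, and 0% both from 12 to 24 h and from 24 to 72 h. By limma's unadjusted p under 0.01 and 1.4-fold, 0 members passed against fed at each time (0.656% of all probes at 12 h, 0.641% at 24 h and 0.428% at 72 h). By that rule 0 passed from 12 to 24 h (0.0447%), and 1, Fads2, from 24 to 72 h (0.503%). An unadjusted p under 0.05 was reached by 1 member at 12 h (Scd2 probe 18816, 3.95% of all probes tested), 1 at 24 h (Fads2, 3.07%), 0 from 12 to 24 h (0.949%) and 1 from 24 to 72 h (Fads2, 3.43%). At 72 h against fed, where 1.55% of all probes reached it, none of the members besides Scd1 did, and Scd1 is not counted there for want of an independent test. Without both low-signal arrays the adjusted rule was passed by 0 members at 12 h (2.6% of all probes), by 1 at 24 h, which was Scd1 (8.81%), and by 0 members besides Scd1 at 72 h (0.837%). Of the other comparisons on 10 arrays, none of the members passed from 12 to 24 h (0% of all probes) or from 24 to 72 h (1.31%).

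Arrays that did not overlap with the fed arrays were counted as well. All fasted arrays lay below all fed arrays for 2 members at 12 h (8.51% of all probes), for 2 at 24 h (6.13%) and for 3 at 72 h (12.4%), which were Scd1, Acly and Fasn probe 20022 at 72 h. They lay above the fed arrays for 1 member at each time, against 6.32%, 6.33% and 9.26% of all probes at 12, 24 and 72 h: Fads2 at the first 2 times and Fasn probe 20905 at 72 h. Without both low-signal arrays, which leaves 2 fasted arrays, the counts were 1 below (25.7% of all probes) and 4 above (21.7%) at 12 h, the latter being Gpam, Fads2, Mod1 and Fasn probe 20905. At 24 h they were 3 below (Scd1 and both probes of Scd2, 23.8%) and 2 above (Gpam and Fads2, 24.9%). The median difference from fed over the 10 probes was -0.33 at 12 h, -0.23 at 24 h and -0.14 at 72 h, where the median over all probes tested was -0.01, 0.00 and -0.01. Without both low-signal arrays these medians of the members were -0.06, -0.13 and -0.14.

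**Figure D3:**
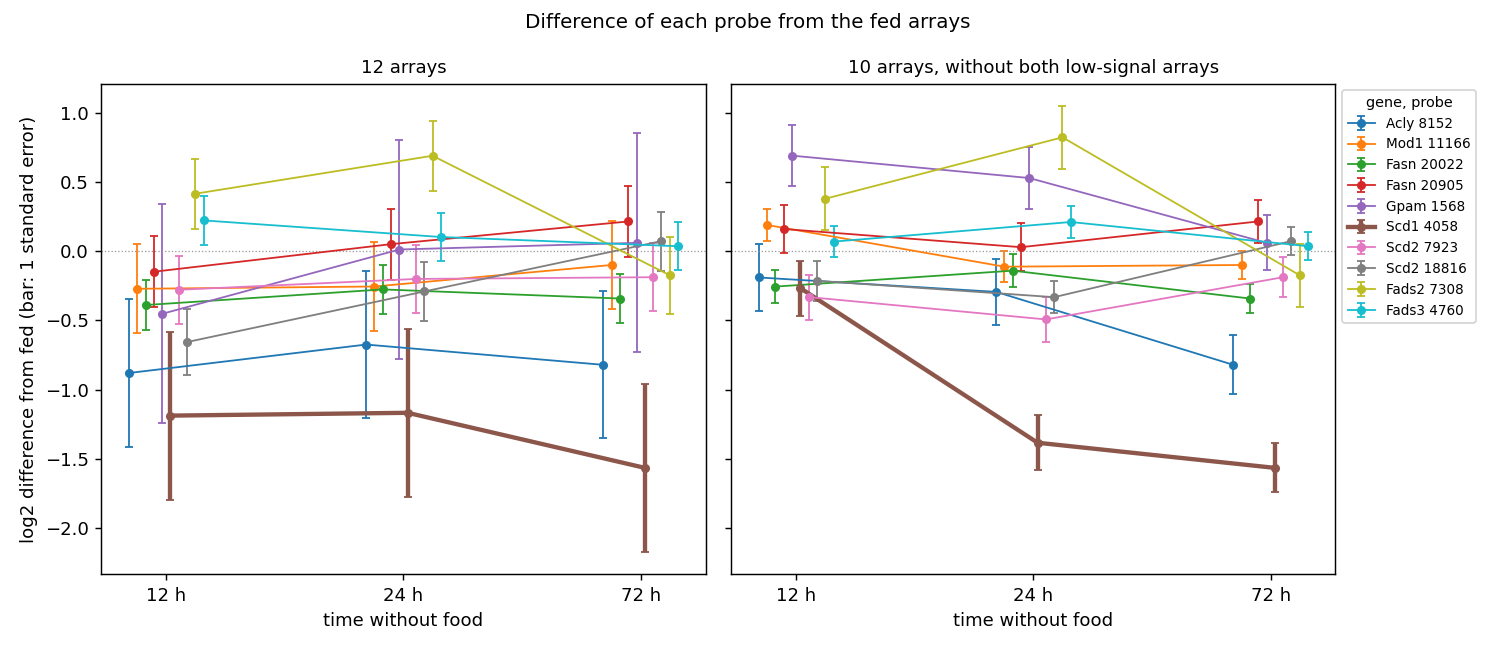
Log2 difference from the fed group (y axis, bars 1 SE) at 12, 24 and 72 h for the 10 probes, from the fit over 12 arrays (left) and over the 10 arrays without the low-signal ones (right). Scd1, the thick line, goes from -1.19 through -1.17 to -1.56 on the left and from -0.27 through -1.38 to -1.56 on the right, and Fads2 is the highest line at 24 h in both.

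The promoters of 3 members are shown, chosen by the side of the fed arrays on which their arrays lay. The 72 h arrays of Acly and of Fasn probe 20022 lay below the fed ones, but those of Fasn probe 20905 above. The 12 and 24 h arrays of Fads2 lay above the fed ones. None of these differences passed in the fit over 12 arrays. Of 11 genes looked for in the RefSeq promoter table (build GRCm38.p6), namely the 8 above and 3 that the array holds under other names, 8 had a window. Scd1, Scd2 and Fads1 had none, so that their promoters were not searched. Each line gives the 250 bases before the start, 5′ to 3′ on the minus strand, at chr11:100528001-100528250 for Acly, chr11:120824548-120824797 for Fasn and chr19:10101504-10101753 for Fads2.
Acly: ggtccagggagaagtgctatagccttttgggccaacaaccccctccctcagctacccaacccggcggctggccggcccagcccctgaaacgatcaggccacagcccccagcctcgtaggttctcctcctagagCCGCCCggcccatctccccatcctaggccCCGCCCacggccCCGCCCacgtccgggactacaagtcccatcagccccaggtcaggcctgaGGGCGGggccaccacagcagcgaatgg
Fasn: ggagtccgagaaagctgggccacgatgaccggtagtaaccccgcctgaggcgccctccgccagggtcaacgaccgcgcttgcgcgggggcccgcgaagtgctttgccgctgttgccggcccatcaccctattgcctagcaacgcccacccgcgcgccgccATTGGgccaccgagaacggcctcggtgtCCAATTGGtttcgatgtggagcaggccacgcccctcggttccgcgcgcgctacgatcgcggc
Fads2: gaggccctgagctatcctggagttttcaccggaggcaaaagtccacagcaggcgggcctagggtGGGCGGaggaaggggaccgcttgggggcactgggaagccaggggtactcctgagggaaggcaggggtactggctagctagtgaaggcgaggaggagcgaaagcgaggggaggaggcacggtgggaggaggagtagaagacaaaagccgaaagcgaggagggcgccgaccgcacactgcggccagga
Capitals mark matches on either strand to CCAAT, the box that NF-Y reads, or to GGGCGG, the GC box that Sp1 reads. Fasn held 3 matches to CCAAT, of which a pair overlaps, Acly held 4 to GGGCGG and Fads2 held 1. CCAAT occurs in 33.8% and GGGCGG in 32.7% of all 32851 promoter windows of that length in the table, and in 4 and 6 of the 10 windows of these genes. The core of the sterol response element, TCACNCCAC, and the E-box CACGTG occur in 1.05% and 6.02% of all windows and in 0 of the 10, which says only that those letters are not in these windows.

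Of the genes that the name rule missed, 3 were present under other array names, with 5 probes. Fads1, the delta-5 desaturase (0710001O03Rik on the array), gave log2 ratios of 0.69, 0.25 and 0.10 on the fed arrays, 0.38 and 0.21 on replicates 1 and 3 of 12 h, 0.37, 0.42 and -0.06 at 24 h, and -0.27, -0.14 and -0.16 at 72 h. All 72 h arrays lay below all fed arrays, and the Fads1 difference of -0.54 did not pass (adjusted p = 1.00). The elongase Elovl6, named Lce on the array and matched through a synonym of other letter case, gave 0.15, 0.14 and 0.20 on the fed and -0.13, -0.19 and -0.27 on the 72 h arrays with its probe 9052, a difference of -0.36 that did not pass either. Its probe 15901 had a single usable fed array. The elongase Elovl7 differed from fed by 0.03 and -0.28 at 72 h on its probes.

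The steps around fatty-acid synthesis were described from lists of genes, of which none had a probe that passed on 12 arrays in any comparison. Cholesterol synthesis shares its SREBP regulators with Scd1 and Fasn, and 18 of the 23 genes listed had a probe. Of 24 probes, 19 at 12 h, 22 at 24 h and 21 at 72 h were lower than in the fed group, with medians of -0.40, -0.47 and -0.40 that lay below those of fatty-acid synthesis at each time. By the unadjusted rule 6, 4 and 3 of them passed, beside 0.656%, 0.641% and 0.428% of all probes. The lowest at 72 h was Msmo1, a sterol C4-demethylase (difference -1.90), which had a single usable fed array. The highest was mevalonate kinase, Mvk (0.16). Without both low-signal arrays 5, 10 and 6 of the 24 passed at 12, 24 and 72 h, beside 2.6%, 8.81% and 0.837% of all probes, among them farnesyl diphosphate synthase (Fdps), which fell by 1.61, 2.17 and 1.57 on the log2 scale. These counts include Msmo1 at each time, with its single usable fed array. At 12 and 24 h the counts have the same limit of days as Scd1.

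Substrate and NADPH supply had 15 probes for 11 genes and medians of 0.01, -0.05 and -0.17 at 12, 24 and 72 h. At 72 h its extremes were Idh1, the cytosolic NADPH-forming isocitrate dehydrogenase (-0.91 on probe 14559), and Gpi1, a glycolytic isomerase (0.38 on probe 20261). The other probe of Gpi1 gave -0.19 at 72 h, and at 24 h on 10 arrays both passed with opposite signs (0.79 on probe 20261 and -0.84 on probe 17901). The partners of desaturases and elongases, 7 probes, had medians of -0.26, -0.16 and -0.29, with cytochrome b5 type B (Cyb5b, probe 16670) lowest at -0.70 and the dehydratase Hacd2 highest at 0.11 at 72 h. The other probe of Cyb5b gave -0.17 at that time. Hsd17b12, the ketoacyl reductase of chain elongation, differed from fed by -0.93, -1.07 and -0.63, and on 10 arrays passed at 24 h. On those arrays Hacd2 passed above the fed level at 12 and 24 h (0.69 and 0.70) and Hacd3 at 12 h (0.86). In this list 2, 2 and 0 probes passed there at 12, 24 and 72 h, beside 2.6%, 8.81% and 0.837% of all probes. Among 12 probes for acyl-CoA handling the medians were -0.10, -0.23 and -0.11, which became 0.23 at 12 h and -0.10 at 24 h without both low-signal arrays. Acyl-CoA binding protein (Dbi) had the lowest value of the list at 72 h (-2.49) and malonyl-CoA decarboxylase (Mlycd), which removes the substrate of Fasn, the highest (0.70). On 10 arrays 2, 4 and 2 of these probes passed at 12, 24 and 72 h, beside the same shares of all probes. Those of 72 h were Dbi and the fatty-acid carrier Fabp5, with Fabp5 at -1.48. At 12 and 24 h Acsl1 passed above the fed level (1.95 and 1.11), and the other passing probes lay below it. At 12 and 24 h the values on 10 arrays have the same limit of days as Scd1.

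Glycerolipid assembly and fatty-acid oxidation had medians above 0 at each time, with no probe passing on 12 arrays. The former list holds more than the steps that follow Gpam, with Gpd1, Plin2, Mttp and the lipase Pnpla2 among its genes. Glycerolipid assembly, 12 probes, had medians of 0.31, 0.39 and 0.06, with 10, 9 and 7 probes higher than in the fed group. Its highest probe at 72 h was the phosphatidate phosphatase Lpin1 (3.06) and its lowest the lipid-droplet protein Plin2 (-0.99). Fatty-acid oxidation, 13 probes, had medians of 0.42, 0.55 and 0.08, and at 72 h ranged from the dehydrogenase Hadh (-0.33) to medium-chain acyl-CoA dehydrogenase, Acadm (0.56). On 10 arrays 5, 4 and 1 of the glycerolipid probes passed at 12, 24 and 72 h, with Lpin1 each time (2.38, 2.39 and 3.06). Of the oxidation probes 4, 5 and 0 passed, beside 2.6%, 8.81% and 0.837% of all probes. At 12 and 24 h both sets of counts have the same limit of days as Scd1. The 13 probes for regulators of lipogenesis had medians near that of all probes (-0.09, -0.07 and -0.08), but held a pair of opposite members. Insig2, which retains SREBP in the endoplasmic reticulum, was the highest at 72 h (1.97) and Insig1, its SREBP-driven relative, the lowest (-0.96). On 10 arrays 2, 3 and 1 of the regulator probes passed at 12, 24 and 72 h, beside 2.6%, 8.81% and 0.837% of all probes. Insig2 passed at each time, with 2.91, 2.42 and 1.97, and Insig1 passed at 24 h with -1.17. Mid1ip1, also on this list, passed at 12 and 24 h with -1.18 and -1.21 and differed by -0.85 at 72 h. The limit of days at 12 and 24 h holds here too.

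**Figure D4:**
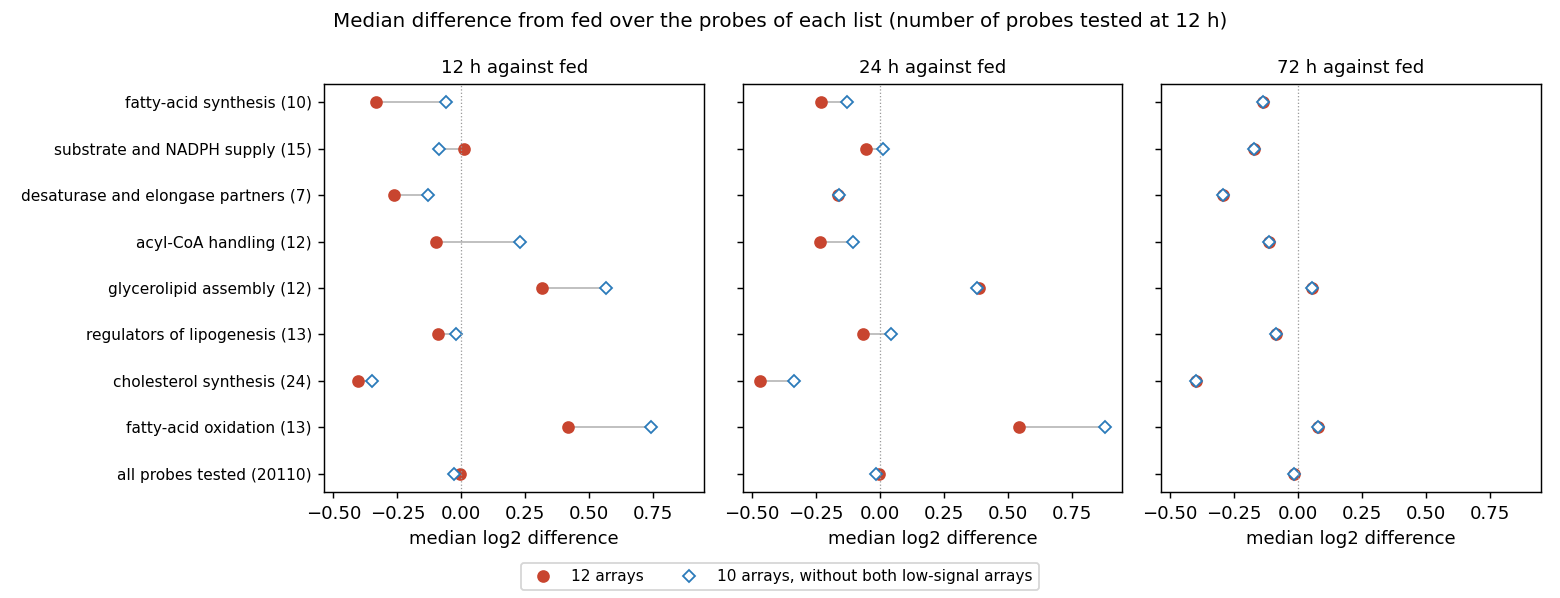
Median log2 difference from the fed group (x axis) over the probes of each list (y axis, number of probes tested in brackets) at 12, 24 and 72 h; red circles are from 12 arrays and open diamonds from the 10 arrays without the low-signal ones. Cholesterol synthesis is lowest at each time on 12 arrays (-0.40, -0.47 and -0.40), fatty-acid oxidation is highest (0.42, 0.55 and 0.08), and all probes tested lie near 0.

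Likeness to Scd1 was measured by Pearson's r of the log2 ratios over the 12 arrays, among 4266 named probes with a value on every array and a sample signal well above background on all of them. The arrays share one reference, and groups and the low-signal arrays enter each r, so that it is given as a description. The 5 probes most like Scd1 were those of vimentin (Vim, r = 0.95), aldehyde oxidase 3 (Aox3, 0.90), lanosterol demethylase (Cyp51, 0.88), the replication factor Mcm10 (0.85) and Socs5 (0.84). On the 10 arrays without the low-signal ones their r was 0.93, 0.88, 0.89, 0.82 and 0.75, and Vim and Cyp51 stayed among the first 5. Of the members, Acly was most like Scd1 (r = 0.77 on 12 arrays and 0.71 on 10), followed by Mod1 (0.72 and 0.58) and Fasn probe 20022 (0.63 and 0.52). Fasn probe 20905 had 0.42 and -0.29, and Fads3 had -0.66 and -0.32. Scd2 probe 18816 had 0.60 on its 11 arrays with a value and 0.03 on 9 of them. Gpam had r = 0.58 on 12 and 0.02 on 10 arrays, and Fads2 had -0.19 on its 10 arrays with a value and -0.11 on 8 of them.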

How the data were processed

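RNA of 12 liver pools was hybridized to Agilent mouse 22K oligonucleotide arrays against the fed reference. Per the file headers, Feature Extraction gave the deposited intensities as the median pixel brightness of a spot and of the background around it, not normalized. The same files, and the deposited value table with the sign turned, hold log10 ratios from that software, after its own background subtraction and dye normalization. The authors subtracted the background median, quantile-normalized the signals and tested by a Split-Factor ANOVA, which was not used here.

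Of 21446 spots, 1075 controls and 91 retired spots were left out. Intensities were background-corrected (normexp, offset 50), brought to 1 distribution over the 24 channels (quantile) and turned into log2 ratios of sample to reference. Spots marked as outliers were set to missing, 24.7% on fed replicate 2, 14.1% on fed replicate 3 and at most 6.29% elsewhere. A probe entered a test where at least 1 group had its sample signal well above background throughout. Differences were tested with limma 3.58.1 (lmFit, eBayes, R 4.3.3) over the 4 groups, after the code had been tested on simulated data. p-values were adjusted by Benjamini-Hochberg over all probes tested. The 3 arrays per group limit the precision. Array names were brought to current symbols through the RefSeq gene table (8601 of 9196 named probes matched).

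Every member probe is named. Of each further list the text names the probe with the largest rise and the one with the largest fall at 72 h, and other probes of those lists were named after their values were seen. The members, lists, tests and the choice of the low-signal arrays were made with earlier results of these data known. Tried as alternatives were other background corrections, normalizations and filters, array weights, the quantification day or the replicate number as a block, and fits without single arrays.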

Additional observations from a re-analysis of the deposited data

How the results depend on the processing

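The Scd1 difference from fed kept its direction in all alternatives run at 12, 24 and 72 h. Leaving out 1 array at a time gave -1.80 to -0.27 at 12 h, -1.38 to -1.04 at 24 h and -1.73 to -1.45 at 72 h. The Scd1 difference passed at 24 h with array weights (-1.36) and without both low-signal arrays (-1.38), and at 72 h the value was -1.56 with array weights, without those arrays and with only the fed and 72 h groups fitted, and -1.45 on the same quantification day. From 12 to 24 h it turned from 0.02 to -0.34 with loess, -0.21 with the scanner software's ratio, -0.995 with array weights and -1.12 without both low-signal arrays, and ranged from -0.90 to 0.63 without single arrays, with -0.90 without replicate 2 of 12 h and -0.20 without replicate 3 of 24 h. From 24 to 72 h it was 0.66 with the quantification day as a block and -0.53 to -0.18 without single arrays. The cause of these moves was not tested.

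The fit with the day as a block joins the 12 and 24 h groups to the fed arrays only through day C. The fasted arrays of that day are both low-signal arrays. At 12 h the number of members passing rose from 0 to 4 in that fit. At 24 h it rose to 2 with array weights, 1 with the day as a block and 1 without both low-signal arrays, and at 72 h to 2 with array weights and 1 each without both low-signal arrays, with only the 2 groups fitted and on the same day. Scd1, which has no test of its own at 72 h, is 1 of these each time, so that Acly with array weights was the remaining member. From 12 to 24 h and from 24 to 72 h it was 1 each with array weights. It stayed 0 in the other alternatives, single arrays left out among them. Over all probes the counts of 1, 1 and 2 at 12, 24 and 72 h became 523, 1772 and 168 without both low-signal arrays, 1915, 2109 and 812 with array weights and 4515, 2331 and 4 with the day as a block. At 72 h the count was 65 with only the 2 groups fitted and 9 on the same day. From 12 to 24 h and from 24 to 72 h the counts of 0 became 0 and 264, 181 and 850, and 0 and 2134 under the same settings. On the low-signal arrays 7.04% and 12.6% of the probes were not well above background, against at most 4.53% elsewhere. Of 1079 other recomputed values 86 had the opposite sign.

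With the replicate number as a block the Scd1 differences were the same as without it (-1.19, -1.17 and -1.56 against fed) and 0 members passed. Same-numbered arrays correlated between -0.65 and 0.63 in 18 pairs, and 2 of 12 arrays were most like one of their own number, so that the numbers do not pair the arrays.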
